A study of Homo sapiens with 9 samples.

Results

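ERK pathway feedback genes, the transcripts through which active ERK limits its own signalling, were read in parental RKO cells and in RKO clones with targeted DIP2C. The 10 genes were taken by name, under a rule that rests on what they are known to do and uses no measured value, and they were found among 23619 genes in each of the 9 samples. They were, however, chosen with earlier results of these data known. They comprise the phosphatases DUSP4, DUSP5 and DUSP6, the Sprouty genes SPRY1, SPRY2 and SPRY4, the Sprouty-related genes SPRED1 and SPRED2, and the ETS factors ETV4 and ETV5. All 10 passed the filter on low counts, and their levels differed widely, from 1.77 CPM (counts scaled to a common library size) for DUSP4 to 599.5 CPM for SPRY4.

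RKO is a human colon carcinoma line that carries an activating BRAF mutation, and every sample here shares that background. The groups were parental RKO, with 2 samples (RKO-1 and RKO-2), DIP2C-/- with clones E3 and C10, and DIP2C+/- with clones A6-C9, A9-A12, F6-A7, G1-A5 and H9-A4. All were cultured untreated for 48 h, and each clone was sequenced as 1 library. The clones came from targeting of a DIP2C exon by recombinant adeno-associated virus, with drug selection and growth from single cells. Per the authors, both DIP2C-/- clones descend from the same DIP2C+/- clone, so they are not independent of each other. Whether the 5 DIP2C+/- clones came from separate targeting events is not given in the labels, so they too may share an origin. The authors describe fewer heterozygous clones than the 5 labelled here, so not every label could be tied to a clone of theirs. No selected clone with intact DIP2C was among the samples, so targeting of DIP2C and the passage through selection and cloning cannot be told apart. Nothing in the labels says that the parental samples were separate cultures, and the p-values measure only the spread between these samples.

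In normal signalling a growth factor receptor activates RAS, RAS activates the RAF kinases, and RAF activates MEK and then ERK. ERK in turn raises transcripts whose proteins act back on the pathway: DUSP6 removes phosphate from ERK in the cytoplasm, DUSP4 and DUSP5 do so in the nucleus, and Sprouty and SPRED proteins act upstream, at the level of receptors, RAS and RAF. ETV4 and ETV5 are transcription factors of the PEA3 group that act as outputs of the pathway, held down by the repressor Capicua (CIC) until ERK inactivates it. Mutant BRAF signals to MEK without RAS, and these transcripts are commonly used as a reading of pathway output in cells that carry it.

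The targeted gene was read first. DIP2C was at 61.0 and 70.9 CPM in parental RKO and at 17.4 and 22.8 CPM in the DIP2C-/- clones. Among DIP2C+/- clones it was at 33.7 CPM at the lowest, 41.7 CPM at the median and 56.3 CPM at the highest, in H9-A4. All 7 clones lay below both parental samples, but H9-A4 by little. It was 1.17-fold below the parental mean, where the parental samples differed from each other by 1.16-fold. A reduction of DIP2C in H9-A4 is thus not clear from its 1 library. In these bulk samples, fewer cells with a transcript and less of it per cell cannot be told apart. H9-A4 stood apart over the whole transcriptome as well: across 9585 genes its root mean square log2 difference was 0.465 to 0.502 from the parental samples and 0.768 to 0.829 from the other 6 clones, which differed among themselves by 0.354 to 0.553. Results are therefore given with and without H9-A4. Deposited totals were 14772593 to 21486483 counts per sample, so that 3 counts, taken as the smallest detectable value, correspond to 0.14 to 0.203 CPM, below every value of the 10 genes. Of 10 epithelial and colonic markers, 6 were under 1 CPM in every sample (KRT19, KRT20, CDX1, VIL1, CDH1 and LGALS4), while KRT18 was at 120.9 to 293.4 CPM and CDX2 at 15.57 to 19.82 CPM. The summed level of the epithelial markers was 247.9 to 306.2 CPM in parental RKO, 151.1 to 183.9 CPM in DIP2C-/- and 182.7 to 331.5 CPM in DIP2C+/-, and its part in the results was not tested. Most of this sum was KRT18, with KRT8 at no more than 21.46 CPM and EPCAM at no more than 3.794 CPM. Leukocyte markers summed to at most 2.037 CPM, fibroblast markers to at most 7.046 CPM and endothelial markers to at most 4.204 CPM.

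The promoters of DUSP6, SPRY4 and SPRY2 are shown because DUSP6 and SPRY4 lay on one side of parental RKO and SPRY2 on the other in every clone. RefSeq promoter entries (GRCh38.p14) matched 6 of the 10 genes, with 10 entries, and DUSP4, DUSP5, ETV4 and ETV5 had none. Each line runs 5′ to 3′ on the strand of the gene from 250 bases before the transcription start. The first is chr12:89352491-89352751 (minus strand, running 11 bases past the start), with matches to the Capicua octamer in capitals. The others are chr5:142324248-142324497 and chr13:80341127-80341376 (both minus strand, ending at the start, the latter the first of 3 SPRY2 entries), with GC boxes in capitals.
DUSP6: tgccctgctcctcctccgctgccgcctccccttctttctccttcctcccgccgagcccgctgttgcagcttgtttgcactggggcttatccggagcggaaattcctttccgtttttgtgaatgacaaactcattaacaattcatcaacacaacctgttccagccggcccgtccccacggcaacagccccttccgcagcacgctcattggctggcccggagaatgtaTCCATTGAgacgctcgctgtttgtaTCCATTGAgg
SPRY4: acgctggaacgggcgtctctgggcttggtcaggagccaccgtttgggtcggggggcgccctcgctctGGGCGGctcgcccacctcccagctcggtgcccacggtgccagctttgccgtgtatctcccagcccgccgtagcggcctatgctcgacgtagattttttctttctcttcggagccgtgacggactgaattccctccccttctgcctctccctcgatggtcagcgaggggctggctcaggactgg
SPRY2: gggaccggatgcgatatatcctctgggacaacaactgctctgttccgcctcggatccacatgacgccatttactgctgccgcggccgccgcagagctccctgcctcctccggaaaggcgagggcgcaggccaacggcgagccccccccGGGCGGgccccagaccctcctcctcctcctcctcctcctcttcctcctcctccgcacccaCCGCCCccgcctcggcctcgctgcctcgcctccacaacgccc

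Motifs were searched on both strands. The Capicua octamers (TGAATGAA, TCAATGAA, TGAATGGA and TCAATGGA) were found in 3.77% of 35116 promoter entries and in 1 of the 10 entries of the feedback genes, that of DUSP6, where TCAATGGA matched on the opposite strand at -24 to -17 and at 2 to 9, counted from the start. The GC box GGGCGG was found in 45.0% of all entries and in 6 of these 10, among them SPRY4 at -183 to -178 and SPRY2 at -102 to -97 and at -42 to -37. The ETS motif CCGGAAG was held by 10.3% of all entries and 1 of these (SPRY1), the AP-1 motif TGACTCA by 4.95% and 1 of these (SPRED2), and the CRE TGACGTCA by 1.85% and none of these. The motifs overlapped nowhere in these entries. These are matches of letters and not measured binding.

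Among the phosphatases, DUSP5 and DUSP6 were higher than parental RKO in 6 of 7 clones. DUSP5 (chr10:112257665-112271291 in GRCh37, the assembly with the coordinates of hg19) was at 62.3 and 87.1 CPM in parental RKO and at 293.8 and 295 CPM in E3 and C10. In DIP2C+/- clones it was at 339 CPM in F6-A7, 299 CPM in A9-A12, 397 CPM in G1-A5 and 355 CPM in A6-C9, but at 10.8 CPM in H9-A4. The 6 clones thus formed a narrow band above the parental samples, and H9-A4 lay 6.91-fold below the parental mean and 32.1-fold below the mean of the other DIP2C+/- clones. DUSP6 (chr12:89741012-89746278) was at 59.7 and 54.5 CPM in parental RKO, at 104 and 131 CPM in E3 and C10, and at 79.8, 92.0, 123 and 114 CPM in F6-A7, A9-A12, G1-A5 and A6-C9. In H9-A4 it was at 37.7 CPM, below both parental samples. As for DUSP5, the 6 clones were above the parental samples and H9-A4 was below them, over a smaller range. DUSP4 (on chromosome 8), the scarcest of the 10, was at 4.85 and 5.17 CPM in parental RKO, at 4.19 and 3.32 CPM in DIP2C-/- clones, at 1.77 to 4.6 CPM in 4 DIP2C+/- clones and at 7.76 CPM in H9-A4. It lay on the other side of the parental samples from DUSP5 and DUSP6 in all 7 clones. In A6-C9 this was by little, at 4.6 CPM against 4.85 CPM in RKO-1. DUSP4 passed in none of the edgeR comparisons with parental RKO given below, with or without H9-A4.

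SPRY4 and SPRY2 lay on opposite sides of parental RKO in every clone. SPRY4 (chr5:141689992-141706020) was at 171 and 192 CPM in parental RKO, at 557 and 488 CPM in E3 and C10, and at 447, 599.5, 478 and 469 CPM in F6-A7, A9-A12, G1-A5 and A6-C9. SPRY2 (chr13:80910111-80915261) was at 73.4 and 80.0 CPM in parental RKO, at 22.6 and 26.8 CPM in E3 and C10, and at 21.9, 19.5, 21 and 30.3 CPM in the same 4 DIP2C+/- clones. In each of these 6 clones SPRY4 was above, and SPRY2 below, both parental samples. H9-A4 had the reverse, with SPRY4 at 98.9 CPM, 1.84-fold below the parental mean, and SPRY2 at 140.9 CPM, 1.84-fold above it. SPRY1 (chr4:124317950-124324915), at 17.7 and 12.2 CPM in parental RKO, was at 8.39 and 14.7 CPM in E3 and C10 and at 7.68 to 13.1 CPM in DIP2C+/- clones, so its groups overlapped.

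**Figure D1:**
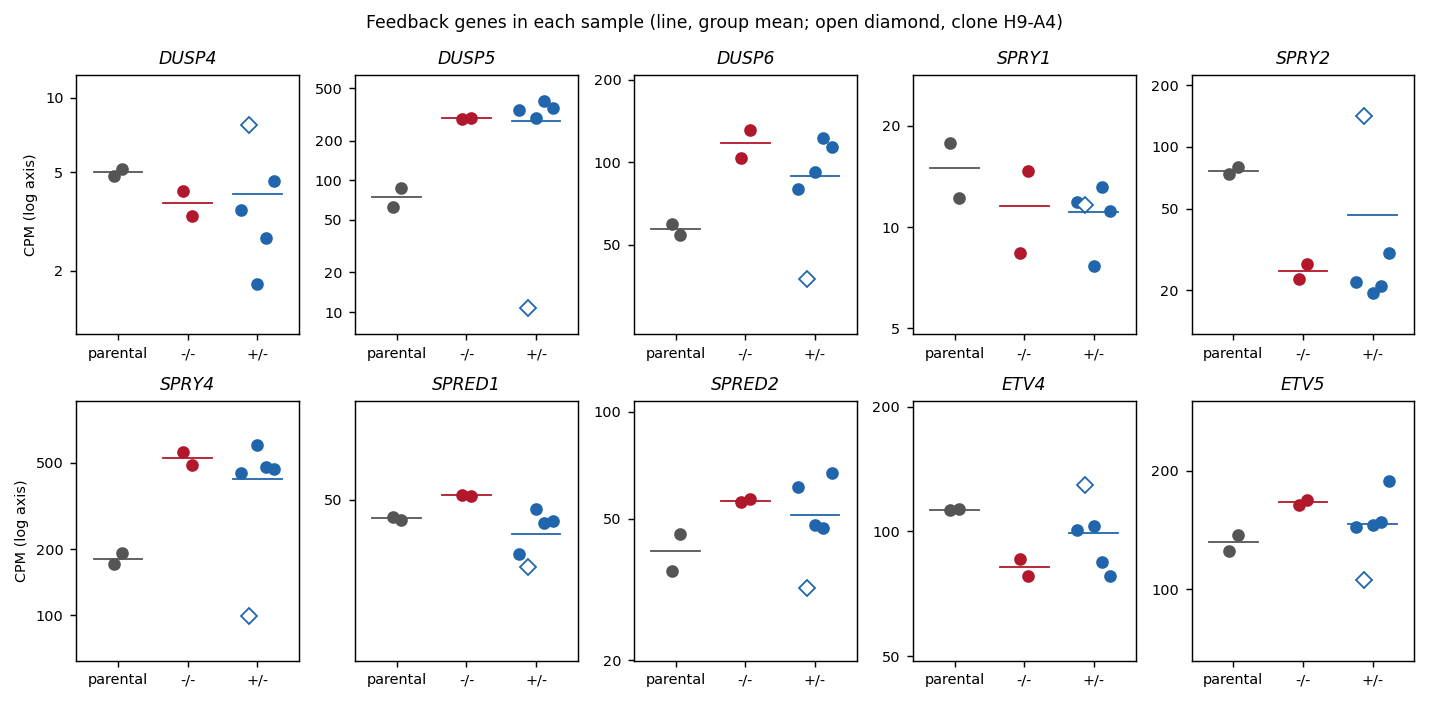
Level of each of the 10 feedback genes in CPM (log axis) by genotype, with 2, 2 and 5 samples; each point is 1 sample, lines are group means and the open diamond is clone H9-A4. DUSP5, DUSP6 and SPRY4 are above, and SPRY2 below, the parental samples in 6 clones, while H9-A4 lies on the other side, with DUSP5 at 10.8 CPM and SPRY2 at 140.9 CPM.

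The SPRED genes, which bring the RAS inhibitor neurofibromin to the membrane, varied less. SPRED1 (chr15:38545037-38649450) was at 45.9 and 45.3 CPM in parental RKO, at 51.2 and 51.0 CPM in DIP2C-/- clones and at 35.8 to 47.8 CPM in DIP2C+/- clones. SPRED2 (chr2:65537985-65659771) was at 35.7 and 45.4 CPM in parental RKO, at 55.9 and 56.8 CPM in DIP2C-/- clones, at 47.2 to 67.1 CPM in 4 DIP2C+/- clones and at 31.9 CPM in H9-A4. SPRED2 was thus above the parental samples in 6 clones and below them in H9-A4, whereas SPRED1 was above them in 3 clones and below them in 4.

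The PEA3 factors parted from each other. ETV4 (chr17:41605212-41656988) was at 112.4 and 113.4 CPM in parental RKO, at 85.6 and 78.2 CPM in DIP2C-/- clones and at 77.9 to 102.8 CPM in 4 DIP2C+/- clones, with 129.2 CPM in H9-A4. ETV5 (chr3:185764103-185828107) was at 125.4 and 137.6 CPM in parental RKO, at 163.6 and 168.6 CPM in DIP2C-/- clones and at 144.0 to 187.9 CPM in 4 DIP2C+/- clones, with 105.5 CPM in H9-A4. ETV4 was below, and ETV5 above, both parental samples in the 6 clones, by less than the changes of DUSP5, SPRY2 and SPRY4.

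Each clone was then set against the parental mean in log2 CPM, without a test, since a clone has no replicate. Past 2-fold were 4 of the 10 genes in C10 (11.9% of all genes tested were), G1-A5 (12%) and A9-A12 (13.9%), 3 in E3 (14.4%), A6-C9 (14.0%) and F6-A7 (14.1%), and 1 in H9-A4 (7.44%). Between the parental samples none of the 10 was past 2-fold (7.9% of all genes were), and the largest difference was 0.54 on the log2 scale, for SPRY1. DUSP5, SPRY2 and SPRY4 were past 2-fold in each of the 6 clones, joined by DUSP6 in C10 and G1-A5 and by DUSP4, which was lower, in A9-A12. In H9-A4 only DUSP5 was, with a log2 difference of -2.76, where the other 6 clones had 1.99 to 2.43. H9-A4 lay outside the range of the parental samples for all 10 genes, 7 below and 3 above. Of all genes tested, 70.7% lay outside that narrow range in H9-A4.

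**Figure D2:**
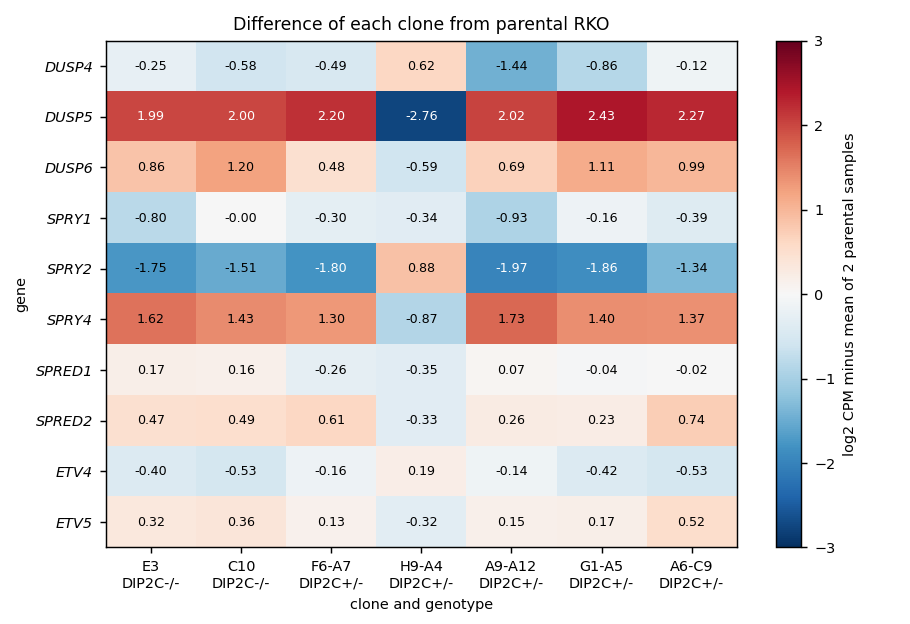
Difference of each clone (columns, with genotype) from the mean of the 2 parental samples in log2 CPM for each feedback gene (rows), with the value in each cell and colour from blue (lower) to red (higher). DUSP5 is at 1.99 to 2.43 in 6 clones and at -2.76 in H9-A4, and SPRY2 is at -1.97 to -1.34 in the 6 clones and at 0.88 in H9-A4.

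Counted over groups, 9 of the 10 genes did not overlap between DIP2C-/- clones and parental RKO, all but SPRY1. With 2 samples on each side 53.2% of all genes did not overlap. Between the 5 DIP2C+/- clones and parental RKO all 10 overlapped (14.3% of all genes did not). Without H9-A4, 8 of the 10 did not overlap, all but SPRY1 and SPRED1 (30.2% of all genes).

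The genotypes were compared with edgeR's quasi-likelihood test, with p-values adjusted by the Benjamini-Hochberg method over all genes tested. With all 9 samples, 0 of the 10 genes passed an adjusted p of 0.05 in DIP2C-/- against parental RKO (0.00644% of all genes did) or in DIP2C+/- against parental RKO (0.0966%). At an unadjusted p under 0.05 these counts were 2 (DUSP6 and SPRY4) and 1 (SPRY4), shares near the 12.7% and 11.6% of all genes. DESeq2 called 0 of the 9 genes to which it gave an adjusted p, in each comparison, and gave none to SPRY2. Without H9-A4, DUSP5, DUSP6 and SPRY4 rose and SPRY2 fell in both comparisons, 4 of 10 genes each, where 4.76% of all genes passed in DIP2C-/- and 7.95% in DIP2C+/-. With all 9 samples edgeR did not call the targeted gene either. DIP2C had log2 fold changes of -1.71 (edgeR adjusted p = 0.0998) in DIP2C-/- and -0.60 (adjusted p = 0.386) in DIP2C+/-. Without H9-A4 these were -1.71 (edgeR adjusted p = 0.00103) and -0.71 (adjusted p = 0.0285). DESeq2, with all 9 samples, gave DIP2C adjusted p-values of 7.76e-07 and 0.181. The median log2 fold change of the 10 genes without H9-A4 was 0.25 in DIP2C-/- and 0.10 in DIP2C+/-, beside 0.02 and 0.01 over all genes. The coefficient of biological variation shared by the fit was 0.2975 with all 9 samples and 0.2419 without H9-A4.

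In DIP2C-/- clones the log2 fold changes were the same to 2 decimals with and without H9-A4 for these genes, since the clone is in neither group, while their standard errors were not. DUSP5 had a log2 fold change of 1.98, with a standard error of 1.02 and an edgeR adjusted p of 0.44 over all 9 samples, against 0.19 and 0.000179 without H9-A4. SPRY4 had 1.53 (SE 0.58, edgeR adjusted p = 0.354), and without H9-A4 an SE of 0.172 and an adjusted p of 0.000589. These correspond to 3.94-fold and 2.88-fold higher levels in DIP2C-/- clones. For SPRY2 the log2 fold change was -1.63, which is 3.1-fold lower (SE 0.868, edgeR adjusted p = 0.453 over all 9 samples, SE 0.225 and adjusted p = 0.00229 without H9-A4). DUSP6 was 2.05-fold higher, at a log2 fold change of 1.04 (SE 0.419, edgeR adjusted p = 0.361 over all 9 samples, SE 0.213 and adjusted p = 0.0184 without H9-A4). The 6 other genes had log2 fold changes of -0.46 to 0.48 without H9-A4 and edgeR adjusted p-values of 0.156 to 0.705, ETV4 being the lowest at -0.46 (SE 0.166).

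In DIP2C+/- clones H9-A4 entered the group mean as well as the spread. DUSP5 was at 74.7 ± 17.5 CPM (SD, n = 2) in parental RKO, 280.1 ± 155 CPM (n = 5) in DIP2C+/- and 347.4 ± 40.3 CPM (n = 4) without H9-A4, with log2 fold changes of 1.91 (SE 0.918, edgeR adjusted p = 0.454) and 2.22 (SE 0.178, adjusted p = 3.7e-05). SPRY4 went from 181.5 ± 14.6 CPM to 418.4 ± 188 CPM, or 498.3 ± 68.7 CPM without H9-A4, with log2 fold changes of 1.21 (SE 0.508, edgeR adjusted p = 0.411) and 1.46 (SE 0.156, adjusted p = 0.000233). SPRY2 was the gene that H9-A4 shifted the most: its log2 fold change was -0.72 (SE 0.684, edgeR adjusted p = 0.722) with the clone and -1.73 (SE 0.183, adjusted p = 0.000219) without it. DUSP6 had 0.65 (SE 0.359, edgeR adjusted p = 0.508) and 0.84 (SE 0.189, adjusted p = 0.021). The 4 DIP2C+/- clones other than H9-A4 thus had DUSP5 4.65-fold, SPRY4 2.75-fold and DUSP6 1.79-fold above parental RKO and SPRY2 3.31-fold below it. The 6 other genes did not pass, with log2 fold changes of -0.67 to 0.47 and edgeR adjusted p-values of 0.16 to 0.867 without H9-A4.

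Heterozygous and homozygous clones were compared directly, to read whether the feedback genes differed with the number of targeted alleles. Per the authors, the homozygous clones came from further rounds of targeting in a heterozygous clone. The number of targeted alleles and those further rounds cannot be told apart here. With all 9 samples 0 of the 10 genes passed (0.0% of all genes did), none had an unadjusted p under 0.05 (5.57% of all genes did), and DESeq2 called 0 of the 8 genes to which it gave an adjusted p, DUSP4 and SPRY2 having none. Without H9-A4 the counts were also 0 by edgeR, adjusted or not (0.0% of all genes passed, and 7.1% had an unadjusted p under 0.05). Log2 fold changes of DIP2C+/- against DIP2C-/- without H9-A4 were between -0.25 (DUSP4, SE 0.4) and 0.24 (DUSP5, SE 0.16), with edgeR adjusted p-values of 0.754 to 0.993. For SPRY2 the difference was -0.10 (SE 0.192), for SPRY4 -0.07 (SE 0.145) and for DUSP6 -0.20 (SE 0.181). With H9-A4 the largest difference was that of SPRY2, at 0.92 (SE 0.747, edgeR adjusted p = 0.909). DIP2C itself was 2.16-fold higher in DIP2C+/- than in DIP2C-/- clones (log2 1.11, SE 0.221, edgeR adjusted p = 0.878, unadjusted p = 0.000425, DESeq2 adjusted p = 0.0061), and 2.0-fold higher without H9-A4 (edgeR adjusted p = 0.679).

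Levels were then compared between genes, as CPM per kb of the canonical transcript, a scale that corrects for length. In parental RKO the order was ETV4 (48.3), SPRY4 (37), SPRY2 (33.5), ETV5 (32.2), DUSP5 (30.2), DUSP6 (15.7), SPRED2 (8.97), SPRED1 (6.28), SPRY1 (5.74) and DUSP4 (0.902 CPM per kb). The parental samples overlapped between neighbours from SPRY4 down to DUSP5, and between SPRED1 and SPRY1, so these places are not distinct. In DIP2C-/- clones DUSP5, at 119 CPM per kb, and SPRY4, at 107 CPM per kb, came first, and SPRY2, at 10.8 CPM per kb, came seventh. The 4 DIP2C+/- clones other than H9-A4 also had DUSP5 first (140 CPM per kb), SPRY4 second (102 CPM per kb) and SPRY2 seventh (10.1 CPM per kb). In H9-A4 SPRY2 was first at 61.6 CPM per kb, and DUSP5 was ninth at 4.37 CPM per kb.

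The makeup of each family of inhibitors differed accordingly. SPRY4 was 47.3% to 49.7% of the summed CPM per kb of SPRY1, SPRY2 and SPRY4 in parental RKO, 84.5% to 91.4% in the 6 clones and 23.4% in H9-A4. SPRY2 was 43.5% to 44.4% in parental RKO, 6.37% to 11.7% in the 6 clones and 71.5% in H9-A4. Parental cells therefore held SPRY2 and SPRY4 transcripts at similar levels, with a SPRY4 to SPRY2 ratio of 1.09 to 1.12. The ratio was 7.22 to 14.3 in the 6 clones and 0.327 in H9-A4. Among the phosphatases DUSP5 was 59.2% to 68.8% of the sum in parental RKO, 76.5% to 85.8% in the 6 clones and 27.0% in H9-A4, where DUSP6 made up 64.3%. The ETV4 to ETV5 ratio was 1.44 to 1.57 in parental RKO, 0.725 to 1.23 in the 6 clones and 2.14 in H9-A4. For SPRED1 to SPRED2 it was 0.621 to 0.8, 0.386 to 0.617 and 0.698. H9-A4 thus lay outside the parental range in the SPRY, DUSP and ETV ratios, DUSP5 to DUSP6 being at 0.42 there against 1.53 to 2.34 in parental RKO, and inside it in the SPRED ratio.

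**Figure D3:**
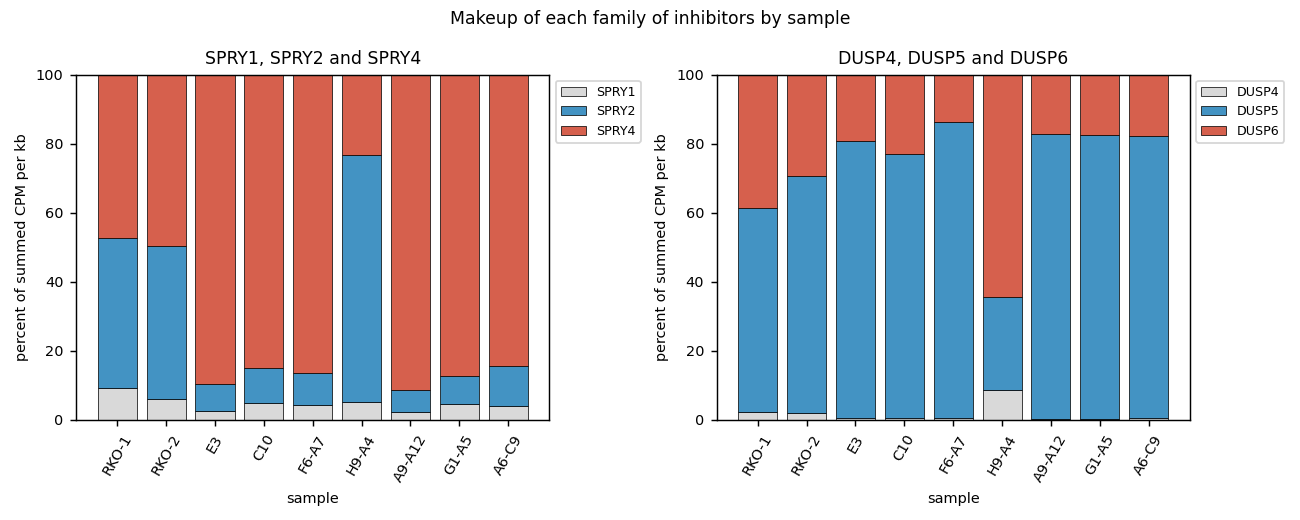
Share of each gene in the summed CPM per kb of its family (percent) in each of the 9 samples, for SPRY1, SPRY2 and SPRY4 (left) and DUSP4, DUSP5 and DUSP6 (right). SPRY4 fills 84.5% to 91.4% of the Sprouty bar in 6 clones, against 47.3% to 49.7% in parental RKO and 23.4% in H9-A4, where SPRY2 fills 71.5%.

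DUSP6, whose protein is the cytoplasmic ERK phosphatase, was taken as the reference for likeness of pattern. Over the 9 samples and among the 9585 genes averaging 10 CPM or more, the smallest root mean square difference of centred log2 CPM from DUSP6 was that of RIOK3 (0.105), followed by IKBIP (0.139), FIGNL1 (0.169), GNG12 (0.17) and EXOC1 (0.171). None of these is one of the 10. DUSP4 averaged less than this and was not compared. The nearest of the 8 other feedback genes compared was SPRED2 (0.38), followed by ETV5 (0.386) and SPRY4 (0.416), and the farthest was SPRY2 (1.52). The measure takes in the size of the differences as well as their direction. DUSP5, on the same side of parental RKO as DUSP6 in every clone, was at 1.14. SPRED1, on the other side in some clones, was at 0.486.

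The rest of the pathway was read from lists chosen by function. With all 9 samples, edgeR called no gene of any list in either comparison with parental RKO. At an unadjusted p under 0.05 by edgeR were 0 to 7 genes of a list, beside 12.7% of all genes in DIP2C-/- and 11.6% in DIP2C+/- clones. The most, 7 of 18, were other ERK-induced transcripts in DIP2C-/- clones. DESeq2 called 1 gene, an ERK-induced transcript (MYC) that rose in DIP2C+/- clones. The counts that follow are without H9-A4, where 4.76% of all genes passed in DIP2C-/- and 7.95% in DIP2C+/- clones. Of 16 genes of the cascade from RAS to ERK, 1 rose in DIP2C-/- and 1 in DIP2C+/- clones, BRAF in both, which is near the share of all genes. BRAF, the kinase mutated in RKO, was at 25.6 and 23.1 CPM in parental RKO, at 41.0 and 47.2 CPM in DIP2C-/- clones, at 35.2 to 39.4 CPM in 4 DIP2C+/- clones and at 13.0 CPM in H9-A4. Its log2 fold changes without H9-A4 were 0.86 (SE 0.168, edgeR adjusted p = 0.0153) and 0.59 (SE 0.148, adjusted p = 0.0334). The list medians were 0.01 and 0.12.

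Of 15 other negative regulators and relatives, 13 were tested, DUSP9 and SPRY3 having too few counts. None passed in DIP2C-/- clones (4 had an unadjusted p under 0.05 by edgeR, as did 18.7% of all genes). In DIP2C+/- clones 1 rose, which is near the share of all genes. There 7 had an unadjusted p under 0.05 by edgeR, as did 22.3% of all genes. The gene that rose was SPRED3, the remaining SPRED gene, with a log2 fold change of 1.19 (edgeR adjusted p = 0.0385), beside 1.34 (adjusted p = 0.0516) in DIP2C-/- clones. Of 18 other ERK-induced transcripts, 6 rose in DIP2C-/- and 7 in DIP2C+/- clones and none fell past the threshold, with median log2 fold changes of 0.43 and 0.29. Passing or not, 12 and 14 of the 18 had positive log2 fold changes. The largest change of the list in DIP2C-/- clones was negative, that of EMP1. It was at -2.55 (edgeR adjusted p = 0.0663) there and at -1.56 (adjusted p = 0.116) in DIP2C+/- clones. LIF, a cytokine, was at 67.3 and 75.8 CPM in parental RKO, at 276.4 to 365.4 CPM in the 6 clones and at 32.4 CPM in H9-A4, with log2 fold changes of 2.09 (edgeR adjusted p = 4.8e-05) and 2.2 (adjusted p = 1.34e-05). The AP-1 subunit gene FOSL1 had 1.08 (edgeR adjusted p = 0.0393) and 1.35 (adjusted p = 0.00591), the urokinase receptor gene PLAUR 1.17 (adjusted p = 0.0293) and 1.41 (adjusted p = 0.00489), and the ETS gene ELK3 1.93 (adjusted p = 0.00811) and 1.39 (adjusted p = 0.0163).

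Of 9 transcription factors that act at ERK-responsive genes, ETS1 rose in both comparisons and ATXN1, a partner of Capicua, fell in DIP2C+/- clones. ETS1 was at 29.6 and 26.0 CPM in parental RKO, at 234.9 and 252.2 CPM in DIP2C-/- clones, at 129.9 to 217.1 CPM in 4 DIP2C+/- clones and at 5.21 CPM in H9-A4. These are 8.77-fold (edgeR adjusted p = 4.55e-05) and 6.6-fold (adjusted p = 3.7e-05) higher levels without H9-A4, and a level 5.33-fold below the parental mean in H9-A4. ATXN1 had log2 fold changes of -1.28 (edgeR adjusted p = 0.136) and -2.15 (adjusted p = 0.00493). Of 12 receptors that signal to ERK, 11 were tested (KIT having too few counts), 1 fell in DIP2C-/- and 3 fell in DIP2C+/- clones. ERBB3 had log2 fold changes of -3.37 (edgeR adjusted p = 0.000973) and -2.93 (adjusted p = 0.000221). FGFR3 had -0.82 (edgeR adjusted p = 0.12) and -1.40 (adjusted p = 0.00347), and FGFR2 -1.18 (adjusted p = 0.0561) and -1.35 (adjusted p = 0.00918). In H9-A4, ERBB3 was at 93.7 CPM and FGFR2 at 17.5 CPM, above the parental means of 64.95 and 12.26 CPM. Not every named gene was reversed in H9-A4. FGFR3 (41.9 CPM) and ATXN1 (5.15 CPM) were below both parental samples there, and SPRED3 (5.89 CPM) was above both. For these genes H9-A4 lay on the same side as the other 6 clones, but nearer to parental RKO. For FGFR3 and SPRED3 it was close to the parental means of 43.29 and 5.502 CPM. The other DIP2C+/- clones had FGFR3 at 11.22 to 19.45 CPM and SPRED3 at 7.785 to 17.18 CPM. For ATXN1 they were at 1.02 to 2.247 CPM, where the parental mean was 7.365 CPM. In DIP2C+/- against DIP2C-/- clones no gene of any list passed by edgeR, with or without H9-A4. By edgeR, 1 to 5 genes of a list had an unadjusted p under 0.05. So did 5.57% of all genes with all 9 samples and 7.1% without H9-A4. DESeq2, with all 9 samples, called none of the list genes to which it gave an adjusted p.

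**Figure D4:**
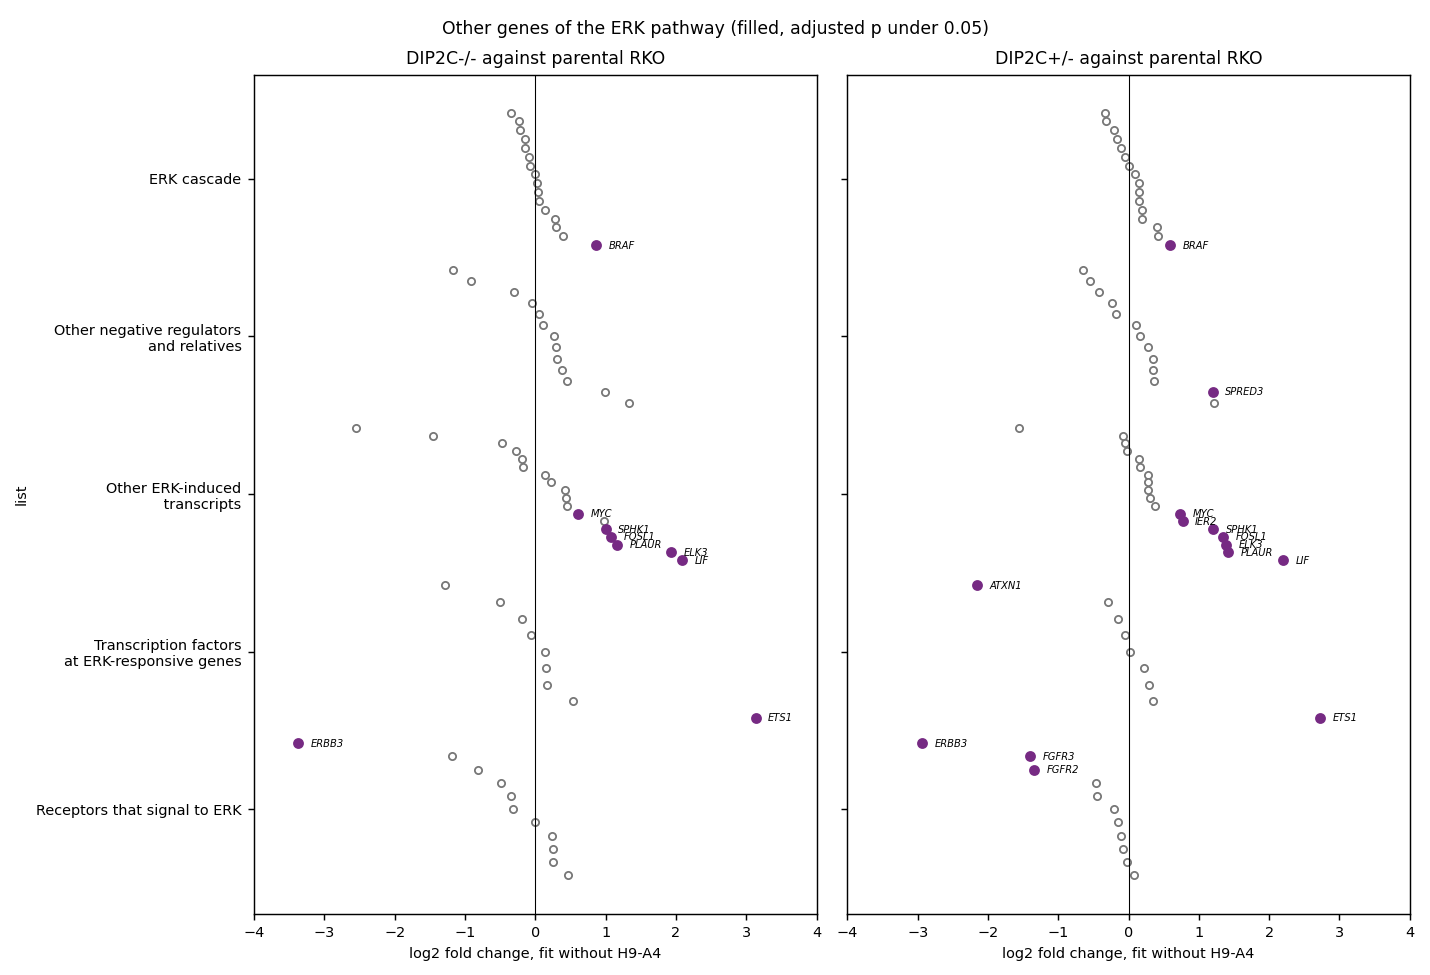
Log2 fold change of each tested gene of 5 lists of the ERK pathway in DIP2C-/- clones (left) and DIP2C+/- clones (right) against parental RKO, in the edgeR fit without H9-A4; filled points are named and have an adjusted p under 0.05. Filled points on the right of 0 include BRAF, LIF and ETS1, and those on the left are receptors and ATXN1.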

How the data were processed

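RNA of 9 RKO samples was sequenced by the authors on the Ion Proton system, aligned to hg19 with TopHat2 (2.0.4 per the processing notes) and quantified with Cufflinks (2.2.1 per the processing notes, where the authors' methods name another version). The files deposited hold estimated counts, which are not whole numbers. Their derivation from Cufflinks is not given in the sources used here. Between 97.78% and 98.35% of the low values in a sample were whole multiples of 1 step, within a tolerance of 0.01, so they are probably scaled by a constant. The limit of 3 counts covers counting error only, while standard errors and p-values reflect the spread between samples. Pairs of samples in a group differed by more than sampling noise, so none was counted as a duplicate.

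Values were rounded and filtered with filterByExpr, which left 15532 genes (15390 without H9-A4), TMM-normalized, and modelled by genotype in edgeR 4.0.16 (R 4.3.3). The test was the quasi-likelihood F test, with Benjamini-Hochberg adjustment over all genes tested. CPM are TMM-scaled. A standard error is |log2 fold change| over the root of F. Log2 CPM had a prior count of 2. The alternatives were DESeq2 1.42.0, DESeq2 size factors, library totals only, 2 other filters, values divided by the step, only the groups compared, and each sample left out. Gene positions and lengths are from GENCODE 44 lifted to GRCh37.

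The rule for the 10 genes uses no measured value, but these genes, the lists and the decision to show results without H9-A4 were chosen with earlier results of these data known. Named from each list were at most the 4 largest changes past the threshold, and the 5 genes nearest to DUSP6. Batches could not be examined, as the sources used here name none. Methylation arrays were not used here.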

Additional observations from a re-analysis of the deposited data

Results flagged for a closer look

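In the group of 5 DIP2C+/- clones, clone H9-A4 lay far from the other 4 in log2 CPM for 7 reported genes, by the gap to its nearest neighbour divided by the range of the group (Dixon's test, critical value 0.71). The ratio was 0.921 for DUSP5, 0.837 for SPRY4 and 0.778 for SPRY2, which are 3 of the 10 feedback genes. It was 0.923 for LIF, 0.896 for BRAF, 0.862 for ETS1 and 0.713 for FGFR2, which had been named because they passed in the fit without H9-A4, so their number says nothing about how often the clone stood apart. Chance flags about 1 in 20 groups. Over all 15532 genes tested, 7.28% passed this limit, 3.9% with H9-A4 as the far sample. What sets H9-A4 apart from the other DIP2C+/- clones was not tested.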

How the results depend on the processing

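Whether any feedback gene passed the threshold depended on H9-A4. The number of the 10 called was 0 to 4 when each sample was left out in turn, in DIP2C-/- and in DIP2C+/- against parental RKO, and 4 arose only without H9-A4. A fit of only the groups compared called 5 in DIP2C-/-, where it lacks H9-A4, ETV4 being the added gene, and 0 in DIP2C+/-, where it holds H9-A4. The other alternatives called 0, DESeq2 giving no adjusted p to SPRY2 or, between the genotypes, to DUSP4. DUSP5, DUSP6, SPRY2 and SPRY4 kept their directions in all 16 alternatives of both comparisons (15 for SPRY2), over ranges of 1.74 to 2.23, 0.82 to 1.21, -1.80 to -1.50 and 1.43 to 1.59 (log2) in DIP2C-/- when samples were left out, and of 1.69 to 2.22, 0.50 to 0.84, -1.73 to -0.52 and 1.04 to 1.46 in DIP2C+/-. Over all genes, 1 was called in DIP2C-/- (295 by DESeq2, 3 with no filter, 0 with at least 10 counts in every sample, 1807 with only the groups compared, 1 to 733 with a sample left out), 15 in DIP2C+/- (191 by DESeq2, 8 with at least 10 counts in every sample, 8 with only the groups compared, 1 to 1224 with a sample left out) and 0 between the genotypes (6 by DESeq2, 1 with only the groups compared, 0 to 3 with a sample left out). In DIP2C+/- against DIP2C-/- the log2 fold changes of DUSP4, DUSP5 and SPRY2 changed sign without H9-A4, to -0.25, 0.24 and -0.10, and that of SPRY1, -0.06 with all samples, was 0.45 without C10 and 0.05 without A9-A12. With a sample left out these ranged from -0.25 to 0.31, -0.23 to 0.24, -0.10 to 1.11 and -0.41 to 0.45. None of these passed the threshold under either setting, and the cause was not tested. No paired analysis was possible because the labels give the clones no replicate numbers shared between groups.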
